A study of Mus musculus with 4 samples.

Results

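The genes of glycolysis and of the transcriptional response to low oxygen were followed in mouse E14 embryonic stem cells after Cas9 editing of Ssrp1. A list of 35 gene symbols was used, and all 35 were found among the 55353 symbols of the deposited count table. It holds 2 glucose transporters, 16 enzymes of the glycolytic steps, 4 genes of lactate production and transport, 3 of pyruvate dehydrogenase and its kinases, 3 of fructose 2,6-bisphosphate metabolism, 3 that encode HIF-1 alpha and its prolyl hydroxylases, and 4 other hypoxia targets. The list goes by function, and it was chosen with earlier results of these data known.

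RNA came from 4 libraries of E14 cells, a mouse line (strain label 12910la), grown in serum with LIF on gelatin. Of these, 2 libraries had the genotype wild type and are called control 1 and 2, and 2 had the genotype Ssrp1 KO. Ssrp1 encodes a subunit of the FACT complex, which loosens nucleosomes ahead of transcribing and replicating polymerases. Whether replicates were separate cultures, and whether the edited cells were 1 clone or several, is not stated, so the p-values measure only how far these samples spread, possibly for technical reasons. The treatment text also describes a puromycin-selected vector for a Usp7 knockdown in wild-type cells, without naming the libraries that received it.

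Total counts ranged from 22611434 to 25344190. The targeted gene, Ssrp1, on chromosome 2 (85037234 to 85047109 in mm10), had 282 and 305 CPM in controls and 305 and 327 CPM in the Ssrp1 KO libraries. CPM, the usual per-library normalised count, was computed after TMM scaling. On the log2 scale Ssrp1 differed by 0.11 ± 0.06 (SE, n = 2 libraries in each group, edgeR quasi-likelihood test, adjusted p = 0.226). Scaling by library size alone gave a difference of 0.19 (edgeR adjusted p = 0.0311), and leaving out knockout replicate 1 also gave a larger one. A Cas9 lesion can leave a transcript in place, so this level does not check the label, and the treated samples are called knockout-labelled. Ribosomal-RNA-like genes took 9.72% and 10.3% of all control counts, against 6.30% and 4.64% of the knockout-labelled ones, and without them 6 members were called higher and 14 lower. All 10 embryonic stem cell markers listed were detected. On the log2 scale 7 fell, Pou5f1 (-0.37) and Sox2 (-0.21) among them, and 2 rose, Nanog (0.17) and Utf1 (0.26). The sum of the 10 went from 4962 and 5127 CPM to 4004 and 3936 CPM. Its largest part was Dppa5a (1334 and 1406 CPM against 932 and 869 CPM). Of 8 fibroblast and feeder cell markers, 3 had no count in any library (Postn, Dcn and Lum), and their sum lay between 37.8 and 39.1 CPM in the controls and between 31.5 and 34.6 CPM in the knockout-labelled libraries. The primitive endoderm markers rose in 5 of 7 tested genes and the neural markers fell in 3 of 6, with 1 higher. Trophoblast markers rose in 2 of 4 and mesendoderm markers in 1 of 3. The summed levels of these lists were 102 to 111 CPM against 125 to 126 CPM for primitive endoderm, 159 to 166 CPM against 88.6 to 92.7 CPM for the neural list, 82.2 to 83.4 CPM against 130 to 138 CPM for trophoblast and 7.43 to 7.47 CPM against 9.53 to 10.9 CPM for mesendoderm. Single genes weighed on these sums, and the sums without them were taken after their values were seen. Without Ncam1 (82.1 and 86.7 CPM against 14.5 and 17.4 CPM) the neural sum was 77.1 and 79.6 CPM against 74.1 and 75.4 CPM. Without Lama1 (99.3 and 92.2 CPM against 95.2 and 89.6 CPM) the primitive endoderm sum was 11.7 and 9.30 CPM against 31.0 and 35.5 CPM. Most of the trophoblast sum was Tfap2c (53.8 and 51.6 CPM against 90.9 and 94.3 CPM), and Cdx2, Elf5, Hand1 and Gata3 were too low to be tested. Eomes is on both the trophoblast and the mesendoderm list and was not called. It held most of the mesendoderm sum (6.21 and 6.20 CPM against 8.50 and 8.06 CPM). The part of these markers in the results on glycolysis was not tested.

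Glycolysis splits glucose into pyruvate in a chain of cytosolic reactions, and most steps are served by several paralogous enzymes with different kinetics and tissue distribution. Pluripotent stem cells are known for a high rate of glycolysis with lactate release. HIF-1 alpha is a transcription factor subunit that prolyl hydroxylases mark for destruction when oxygen is present, and in hypoxia it raises the transcription of glucose transporters, most glycolytic enzymes, Pdk1 and Vegfa, among others.

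Transcripts of glycolysis were lower more often than higher in the knockout-labelled libraries, and in 3 families (glucose transporters, phosphofructokinases and enolases) paralogs were called in opposite directions. Of the 35 members, all of which were tested, 13 fell, 6 rose and 16 did not pass the threshold (adjusted p under 0.05 over all 17482 genes tested). Among all genes tested, 33.6% were called, 17.2% lower and 16.5% higher, against 54.3% of the members called, 37.1% lower and 17.1% higher. As the list was chosen with earlier results of these data known, these shares describe it and test nothing. Highly expressed genes were called more often: of the 2191 tested genes with a mean of at least 100 CPM, 23.4% were called lower and 26.9% higher, against 38.1% and 19.05% of the 21 members at that level. Members had a median log2 fold change of -0.08, beside 0.0035 for all genes tested. Every change of a member was below 1 log2 unit, from -0.92 (Vegfa) to 0.68 (Eno3). In 29 of the 35 members, 82.9%, the groups did not overlap, where the share was 66.6% of all genes tested. At 100 CPM and above the shares were 81.0% of members and 77.9% of all genes. The 16 glycolytic enzymes, of which 8 fell and 4 rose, summed to 16718 and 17518 CPM in the controls and to 14282 and 14741 CPM in the knockout-labelled libraries. In bulk RNA, fewer cells with a transcript and less transcript per cell cannot be told apart.

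**Figure D1:**
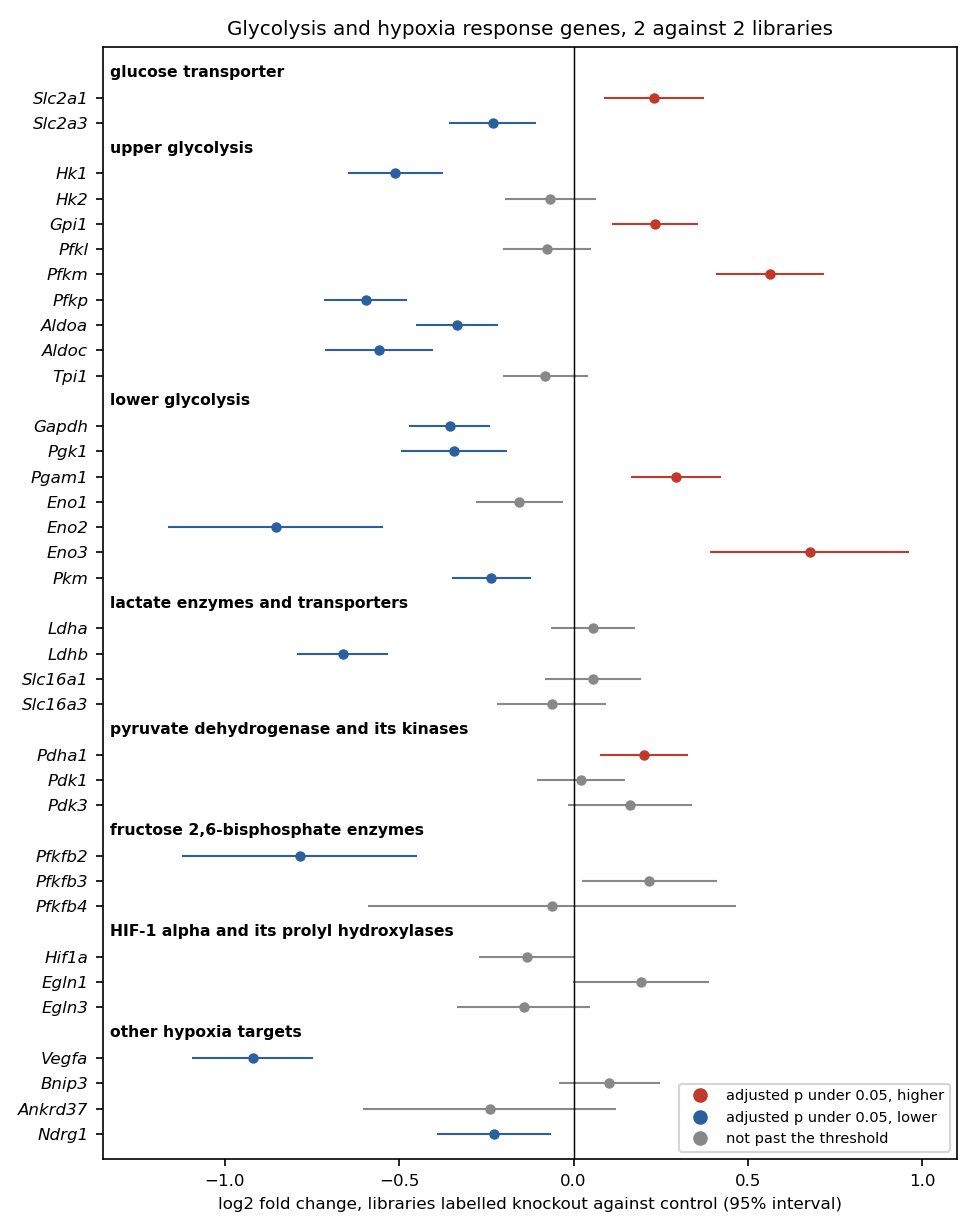
Log2 fold change of each of the 35 members (x axis, knockout-labelled libraries against controls, 2 libraries each), grouped by role on the y axis, with 95% intervals from edgeR. The 13 members in blue were called lower, the 6 in red higher and the 16 in grey did not pass the threshold.

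The calls were not equally firm. Over 11 other settings of scaling, filter, tool and libraries, 10 of the 13 falls kept their call in every one, the exceptions being Slc2a3, Pkm and Ndrg1, and 2 of the 6 rises did so, Pfkm and Eno3. Without control 1 the number of rises was 2, as Slc2a1, Gpi1, Pgam1 and Pdha1 missed the threshold. With scaling by library size alone 10 members were higher and 11 lower. The same choice moved the share of rises among all called genes from 49.0% to 63.7%.

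The promoters of the lactate dehydrogenase pair, of Pfkp and Pgk1, which fell, and of Vegfa, which fell most, are shown because they differ in the letters bound by HIF, the core ACGTG or GCGTG. Each line gives the 250 bases before the most upstream RefSeq start of the gene (RefSeq, GRCm38.p6, the mm10 build), 5′ to 3′, with every match of ACGTG or GCGTG on either strand in capitals.
Ldha (chr7:46845554-46845803, plus strand): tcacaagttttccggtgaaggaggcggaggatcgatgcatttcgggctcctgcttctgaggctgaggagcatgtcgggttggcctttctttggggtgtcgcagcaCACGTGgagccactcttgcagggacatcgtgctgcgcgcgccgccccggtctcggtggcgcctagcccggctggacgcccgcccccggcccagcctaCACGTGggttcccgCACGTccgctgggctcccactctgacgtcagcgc
Ldhb (chr6:142507958-142508207, minus strand): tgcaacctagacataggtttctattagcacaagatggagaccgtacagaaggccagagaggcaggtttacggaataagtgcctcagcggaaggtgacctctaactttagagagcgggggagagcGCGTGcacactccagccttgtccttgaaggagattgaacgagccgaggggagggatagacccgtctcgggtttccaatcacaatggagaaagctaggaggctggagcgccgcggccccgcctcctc
Pfkp (chr13:6648772-6649021, minus strand): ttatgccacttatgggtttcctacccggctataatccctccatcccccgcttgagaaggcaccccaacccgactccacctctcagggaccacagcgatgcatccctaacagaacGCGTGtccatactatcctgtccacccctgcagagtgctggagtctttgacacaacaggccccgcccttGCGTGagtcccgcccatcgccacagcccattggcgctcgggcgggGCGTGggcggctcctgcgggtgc
Pgk1 (chrX:106186850-106187099, plus strand): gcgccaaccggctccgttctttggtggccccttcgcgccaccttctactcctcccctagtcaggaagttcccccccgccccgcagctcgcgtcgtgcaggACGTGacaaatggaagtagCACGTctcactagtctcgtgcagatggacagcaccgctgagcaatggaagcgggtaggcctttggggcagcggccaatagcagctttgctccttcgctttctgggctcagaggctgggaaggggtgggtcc
Vegfa (chr17:46032378-46032627, minus strand): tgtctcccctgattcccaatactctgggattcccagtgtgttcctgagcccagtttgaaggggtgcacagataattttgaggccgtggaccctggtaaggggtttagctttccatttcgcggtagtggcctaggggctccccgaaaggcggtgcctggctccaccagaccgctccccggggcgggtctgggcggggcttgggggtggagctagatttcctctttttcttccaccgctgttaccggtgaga
The window of Ldha held 5 matches of ACGTG counted over both strands, since CACGTG holds 1 on each strand, and none of GCGTG. A second Ldha start, further downstream, had no ACGTG and 1 GCGTG. Ldhb had no match of ACGTG and 1 of GCGTG. In Pfkp there were 3 matches, each GCGTG, and in Pgk1 2, both ACGTG. The Vegfa window had neither, and the second listed Vegfa start, further downstream, had 1 of each. RefSeq promoters were matched for 33 members with 49 starts, and for Slc2a3 and Ndrg1 none was used. ACGTG was found in 23 of the 49 windows (46.9%), against 16.6% of all 32851 promoter windows of this length and 21.1% of those of genes tested here. Either motif was found in 40 of the 49 windows (81.6%), against 38.6% and 54.5%. By call, windows with either motif were 14 of 19 for members that fell, 7 of 9 for members that rose and 19 of 21 for the others. A match is a description of the letters only, several starts of a gene share sequence, and the counts per gene do not say which start was used.

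Glucose enters cells through facilitative transporters. Slc2a3 encodes the high-affinity GLUT3 and Slc2a1 the widely expressed GLUT1, and the pair moved in opposite directions. Slc2a3 (chromosome 6, 122727809 to 122801640) was at 1788 and 1813 CPM in the controls and 1613 and 1452.5 CPM in the knockout-labelled libraries, a log2 fold change of -0.23 ± 0.06 (SE; edgeR adjusted p = 0.00474). Slc2a1 (chromosome 4, 119108711 to 119137983) was at 478 and 538 CPM and at 562 and 631 CPM, a change of 0.23 ± 0.07 (adjusted p = 0.0135). The groups did not overlap for either gene, but control 2 and knockout 1 lay close together for Slc2a1, and the change was 0.14 without control 1 (edgeR adjusted p = 0.347) and 0.14 without knockout replicate 2 (adjusted p = 0.00915). For Slc2a3 the call was lost with scaling by library size alone (-0.15, adjusted p = 0.0577) and without control 2 (adjusted p = 0.0691).

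Levels of paralogs were compared per length, as CPM per kilobase of the principal transcript, and as a share of their sum in each library. GLUT3 transcripts made up 75.5% and 73.5% of the pair in the controls and 70.3% and 65.5% in the knockout-labelled libraries. The shares depend on the length used. With the merged exons of all transcripts as length, GLUT3 held 64.4% and 62.0% in the controls, against 58.1% and 52.7%. The summed level of both transporters was 598 and 623 CPM per kilobase against 580 and 560 CPM per kilobase.

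Among enzymes of the upper, energy-consuming steps, 4 fell and 2 rose of 9. The hexokinases phosphorylate glucose and so trap it in the cell. Hk1 (chromosome 10, 62268855 to 62379908), the isoform of most tissues, fell from 153 and 157 CPM to 109 and 109 CPM, with a log2 fold change of -0.51 ± 0.06 (edgeR adjusted p = 4.41e-06). Hk2, the inducible isoform, was at 283.5 and 289.8 CPM and at 266 and 282 CPM, a difference of -0.07 with a 95% interval from -0.20 to 0.06. Hk2 transcripts were 56.4% and 56.3% of the pair per length in the controls and 63.0% and 64.4% in the knockout-labelled libraries. With merged exons as the length they were 72.6% and 72.5% in the controls, against 77.7% and 78.7%. Gpi1, the isomerase of glucose 6-phosphate, was at 687 and 728 CPM in controls and at 811 and 853 CPM in the knockout-labelled libraries (0.23 ± 0.06, adjusted p = 0.00445). The call was lost without control 1 (edgeR adjusted p = 0.177).

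Phosphofructokinase commits the sugar to glycolysis, and its subunit genes diverged most clearly. Pfkp (chromosome 13, 6579768 to 6648777), the platelet-type subunit and the most abundant here by counts, was at 1083.5 and 1112.5 CPM in controls and at 723 and 729.9 CPM in the knockout-labelled libraries. Its log2 fold change was -0.60 ± 0.06 (edgeR adjusted p = 1.09e-07). The muscle-type Pfkm (chromosome 15, 98092589 to 98132451) went the other way, from 52.0 and 54.6 CPM to 79.4 and 78.3 CPM (0.56 ± 0.07, adjusted p = 6.8e-06). For both genes the gap between groups was many times the gap between replicates. The liver-type Pfkl stood at 391 and 409 CPM and at 387 and 371 CPM, a difference of -0.08 with an interval from -0.20 to 0.05. Per length, Pfkp supplied 68.0% and 67.6% of the phosphofructokinase transcripts in the controls and 57.0% and 58.1% in the knockout-labelled libraries, while Pfkm went from 4.70% and 4.78% to 9.02% and 8.97%. The order of Pfkp and Pfkl depends on the length used. With the merged exons of all transcripts as length, Pfkp held 39.7% and 40.8% and Pfkl 42.8% and 41.7% in the knockout-labelled libraries, and Pfkp 52.2% and 51.7% in the controls. Pfkm then went from 10.0% and 10.2% to 17.5% in both knockout-labelled libraries. The summed level of the family was 384 and 397 CPM per kilobase against 306 and 303 CPM per kilobase.

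Aldolase cleaves fructose 1,6-bisphosphate. Aldoa (chromosome 7, 126795234 to 126800751), the main isoform, was at 1935 and 2048 CPM in controls and at 1609.8 and 1548 CPM in the knockout-labelled libraries (-0.34 ± 0.06, edgeR adjusted p = 1.13e-04). The brain-type Aldoc fell from 73.5 and 76.1 CPM to 50.4 and 51.2 CPM (-0.56 ± 0.07, adjusted p = 8.7e-06). Aldoa held between 98.0% and 98.3% of the pair per length in all 4 libraries, and between 96.7% and 97.3% with merged exons as the length. Tpi1, which interconverts the products of aldolase, was at 653 and 681 CPM and at 643 and 618 CPM, a difference of -0.08 (interval -0.20 to 0.04).

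In the lower, energy-yielding steps 4 of 7 enzymes fell and 2 rose. Gapdh (chromosome 6, 125161715 to 125166467), which oxidises glyceraldehyde 3-phosphate and is a common reference gene, had the highest level per length of all members. It was at 3957 and 4059.9 CPM in controls and at 3006 and 3260.3 CPM in the knockout-labelled libraries, a log2 fold change of -0.36 ± 0.06 (edgeR adjusted p = 4.99e-05). Pgk1 (chromosome X, 106187100 to 106203699), the kinase of the first ATP-yielding step, was at 1083 and 1149 CPM and at 965 and 794 CPM (-0.34 ± 0.07, adjusted p = 0.00103). Its replicates in the knockout-labelled libraries stood apart, and leaving out knockout replicate 1 gave a change of -0.49, leaving out replicate 2 one of -0.21. Pkm, pyruvate kinase, was at 3489 and 3661 CPM and at 2959 and 3113 CPM (-0.24 ± 0.05, adjusted p = 0.00214). It missed the threshold without control 2 (edgeR adjusted p = 0.0887), and with scaling by library size alone the change was -0.15. Pgam1, the mutase between Pgk1 and enolase, rose, where Pgk1 fell and Eno1 was not called, from 369.6 and 387 CPM to 448 and 479.9 CPM (0.30 ± 0.06, adjusted p = 9.44e-04), a call lost without control 1 (adjusted p = 0.0591).

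The enolases, which form phosphoenolpyruvate, again split by paralog. Eno1 (chromosome 4, 150236721 to 150248879), the main isoform, was at 2481 and 2672 CPM in controls and at 2198 and 2428 CPM in the knockout-labelled libraries. The groups did not overlap, and the change of -0.16 ± 0.06 missed the threshold narrowly (edgeR adjusted p = 0.0517). Its retrocopy Eno1b, which may exchange reads with Eno1, was at 793 and 861 CPM and at 678 and 610.4 CPM (-0.36 ± 0.06, adjusted p = 2.2e-04). With the counts of both summed, an alternative chosen after seeing the data, the change was -0.20 and passed the threshold (adjusted p = 0.00832). The neuronal Eno2 (chromosome 6, 124760053 to 124769673) was at 17.2 and 24.2 CPM and at 12.1 and 10.9 CPM (-0.85 ± 0.15, adjusted p = 1.47e-04). The muscle enolase Eno3 (chromosome 11, 70657202 to 70662513) was at 8.70 and 9.59 CPM and at 14.9 and 14.4 CPM (0.68 ± 0.14, adjusted p = 6.56e-04). Both minor genes held between 0.321% and 0.866% of the sum of Eno1, Eno2 and Eno3 per length. With merged exons as the length they held between 0.5003% and 2.04%. Eno1b was not part of this sum, so the shares would be lower with it.

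**Figure D2:**
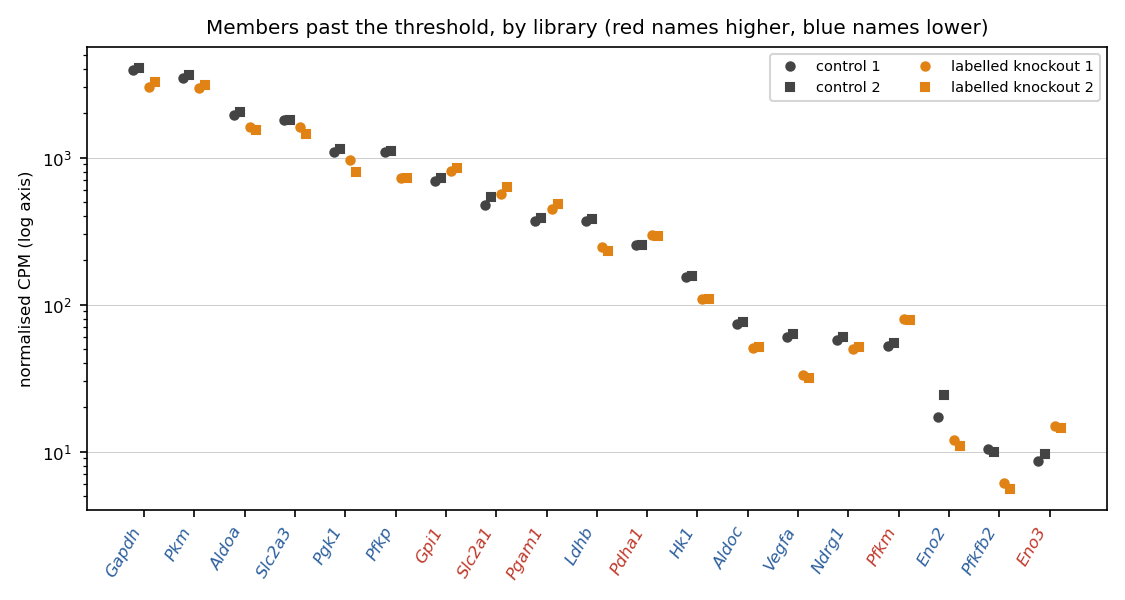
Normalised CPM (y axis, log scale) of the 19 members past the threshold in each of the 4 libraries, ordered by level in the controls. Dark grey points are controls and orange points are knockout-labelled libraries. For all 19 genes, picked by their call, the groups do not overlap, where the share is 66.6% of all genes tested. Gapdh is the highest and Eno3 the lowest in the controls.

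Lactate dehydrogenase interconverts pyruvate and lactate. Its A subunit, encoded by Ldha, favours lactate formation and the B subunit, encoded by Ldhb, the reverse reaction. Ldha (chromosome 7, 46841475 to 46855627) was at 1118 and 1186 CPM in controls and at 1229 and 1166 CPM in the knockout-labelled libraries. Its groups overlapped, and the difference was 0.06 with an interval from -0.07 to 0.18. Ldhb (chromosome 6, 142490249 to 142507957) was at 371 and 383 CPM and at 244 and 232 CPM (-0.66 ± 0.06, edgeR adjusted p = 8.85e-08), the largest fall among members above 100 CPM. Ldhb made up 31.0% and 30.5% of the pair per length in the controls and 21.2% in both knockout-labelled libraries. With merged exons as the length it held 41.1% and 40.5% in the controls, against 29.54% and 29.55%. The promoters of this pair are shown above. The lactate and proton carriers Slc16a1 (MCT1) and Slc16a3 (MCT4) did not pass the threshold: Slc16a1 was at 126 and 133 CPM and at 137 and 132 CPM, and Slc16a3 at 97.6 and 106.5 CPM and at 104 and 91.5 CPM. Their intervals ran from -0.08 to 0.19 and from -0.22 to 0.09.

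Pyruvate enters the mitochondrial cycle through pyruvate dehydrogenase, which is switched off by the Pdk kinases. Pdha1, its catalytic subunit gene on chromosome X, was at 256 and 256 CPM in controls and at 295 and 293 CPM in the knockout-labelled libraries (0.20 ± 0.06, edgeR adjusted p = 0.0142). Leaving out either control ended the call by edgeR, at an adjusted p of 0.182 without the first and 0.174 without the second. Pdk1, a standard target of HIF-1, was at 393 and 402.5 CPM and at 413 and 394 CPM, a difference of 0.02 with an interval from -0.11 to 0.15. Pdk3 was at 39.2 and 41.7 CPM and at 43.9 and 46.7 CPM (0.16, interval -0.02 to 0.34). Per length Pdk1 supplied 71.1% to 73.0% of the transcripts of the 4 kinases in all libraries, and 65.9% to 67.9% with merged exons as the length.

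The Pfkfb enzymes make and degrade fructose 2,6-bisphosphate, the strongest activator of phosphofructokinase. Pfkfb2 (chromosome 1, 130689182 to 130729253), known from heart, fell from 10.4 and 9.87 CPM to 6.15 and 5.58 CPM (-0.79 ± 0.16, edgeR adjusted p = 8.02e-04). Pfkfb3, the kinase-dominant inducible form, was at 48.6 and 61.6 CPM and at 62.7 and 65.6 CPM. Control 1 was the low library, the change of 0.22 ± 0.09 missed the threshold (adjusted p = 0.0788), and it passed in 4 of the 11 other settings, without control 2 among them (0.40, edgeR adjusted p = 0.00728). Pfkfb4 was the least abundant member, at 2.99 and 3.75 CPM and at 2.86 and 3.61 CPM, with overlapping groups. With Pfkfb1 of the wider pathway list included, Pfkfb3 made up 42.9% and 48.5% of this family per length in the controls. It made up 57.0% and 57.5% in the knockout-labelled libraries. With merged exons as the length Pfkfb3 held 48.9% and 54.4% in the controls, against 62.87% and 63.25%.

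**Figure D3:**
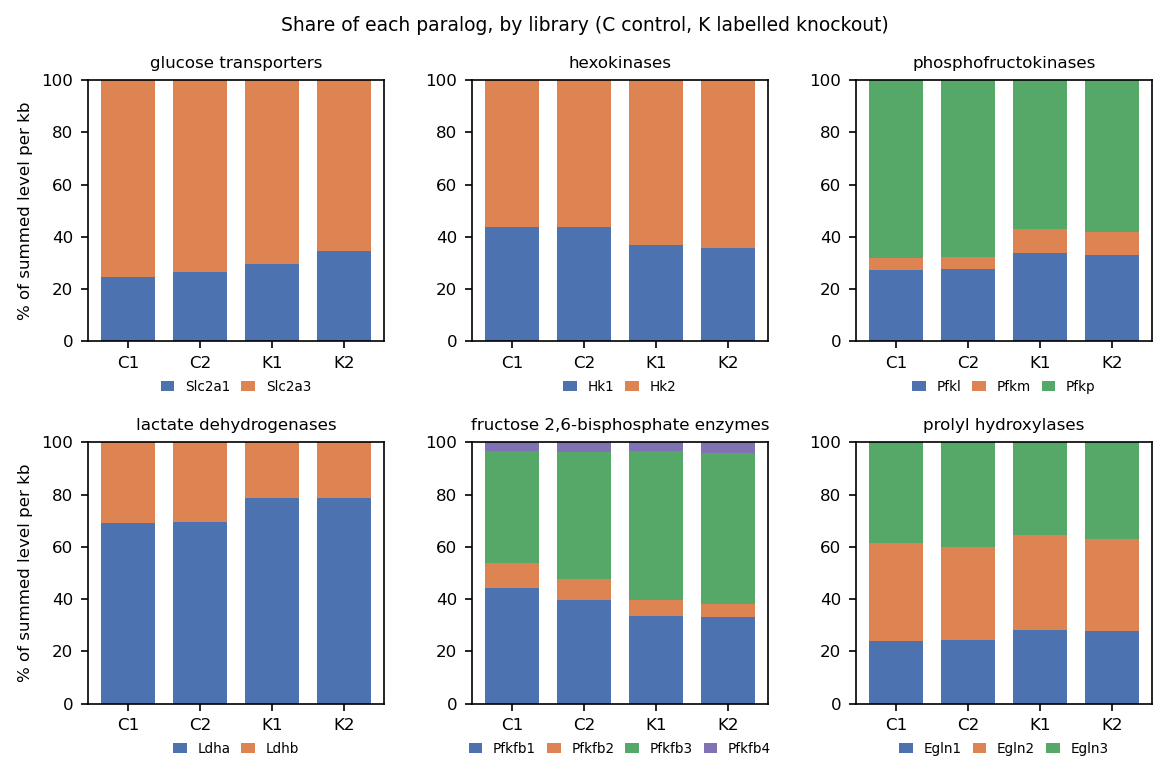
Share of each paralog (y axis, percent of the summed CPM per kilobase of its family) in control 1 and 2 (C1, C2) and in both knockout-labelled libraries (K1, K2), for 6 families. Ldhb goes from 31.0% and 30.5% to 21.2% in both knockout-labelled libraries, and Pfkp from 68.0% and 67.6% to 57.0% and 58.1%.

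The oxygen-sensing members did not pass the threshold. Hif1a (chromosome 12, 73901375 to 73947530) was at 152 and 148 CPM in controls and at 139.5 and 133.5 CPM in the knockout-labelled libraries, a log2 fold change of -0.13 ± 0.06 (edgeR adjusted p = 0.118). The hydroxylase gene Egln1 (PHD2), itself a HIF target, was at 30.9 and 33.7 CPM and at 38.2 and 35.8 CPM (0.19 ± 0.09, adjusted p = 0.12), and Egln3 (PHD3) at 36.9 and 41.6 CPM and at 35.7 and 35.5 CPM (-0.14 ± 0.09, adjusted p = 0.246). In each of the 3 genes the groups did not overlap, which was also so in 66.6% of all genes tested. None of the 3 passed DESeq2 or an unadjusted p of 0.05 in edgeR, whose values were 0.0509, 0.0522 and 0.134 in this order. Hif1a passed in 1 of the 11 other settings, without knockout replicate 1 (-0.17, edgeR adjusted p = 0.0281), and Egln1 in 1, with scaling by library size alone (0.28, adjusted p = 0.0261).

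Of the 4 other hypoxia targets, 2 fell. Vegfa (chromosome 17, 46016993 to 46032369), the angiogenic growth factor, had the largest fall of all members. It was at 59.7 and 62.7 CPM in controls and at 33.2 and 31.5 CPM in the knockout-labelled libraries, a log2 fold change of -0.92 ± 0.08 (edgeR adjusted p = 5.51e-08), and it lay between -0.96 and -0.84 over all settings of scaling, filter, tool and libraries. The window of the most upstream Vegfa start, shown above, held no match of either motif, and that of the other listed start held 1 of each. Sequence outside these windows was not searched, so a HIF site further away could have been missed. Whether either motif had a part in the fall was not tested. Ndrg1 (chromosome 15, 66929318 to 66969640), a stress-responsive gene induced by hypoxia, was at 57.8 and 60.5 CPM and at 49.7 and 51.3 CPM (-0.23 ± 0.08, adjusted p = 0.0287). This call was the least firm of all members and was lost in 5 of the 11 other settings, with DESeq2 (adjusted p = 0.088) and scaling by library size alone (-0.15, edgeR adjusted p = 0.159) among them. Bnip3, a mitophagy receptor gene, was at 275 and 314 CPM and at 328 and 305 CPM, with overlapping groups (0.10, interval -0.04 to 0.25). Ankrd37 was at 6.98 and 8.32 CPM and at 6.84 and 6.13 CPM (-0.24, interval -0.60 to 0.12).

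Per length, the controls ranked Gapdh first at 2823 CPM per kilobase, then Pkm (1435 and 1505), Aldoa (1281 and 1356) and Eno1 (1224 and 1318). The values of Aldoa and Eno1 overlapped, and those of Pkm and Aldoa did not. Ldha followed at 652 CPM per kilobase and Pgk1 at 611, and Slc2a3 was next at 455. At the other end stood Pfkfb4 (0.967), Pfkfb2 (2.29), Eno3 (5.85) and Eno2 (7.40). Vegfa has no place in this order, because its principal transcript in the annotation holds only 654 bases. The order of Eno1, Ldha and Pgk1 depends on the length used. Their principal transcripts hold 2027, 1766 and 1825 bases, and their merged exons 5379, 3310 and 2244 bases.

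The other genes of the same pathways, a list of 99 also chosen with earlier results known, were counted in the same way. Of 87 tested, 18 rose (20.7%) and 26 fell (29.9%), beside 16.5% and 17.2% of all genes tested. Without control 1 the number of rises was 11. The oxidative and non-oxidative enzymes of the pentose phosphate pathway, which branches off glucose 6-phosphate to yield NADPH and ribose, had 3 rises and 0 falls among 8 tested. Falls in this list numbered 1 at an unadjusted p under 0.05 (Pgls, -0.27) and 0 by DESeq2. Rpe, an epimerase, rose from 62.8 and 65.3 CPM to 118 and 106 CPM (0.81 ± 0.07, edgeR adjusted p = 6.15e-08), and Pgd, a dehydrogenase of the oxidative branch, from 112 and 116 CPM to 149 and 149 CPM (0.39 ± 0.06, adjusted p = 1.12e-04). Rpia rose from 5.93 and 4.41 CPM to 8.12 and 8.35 CPM (0.68 ± 0.19, adjusted p = 0.00774), a call lost without control 2 (adjusted p = 0.121).

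In the list of gluconeogenesis and glycogen genes 4 rose and 4 fell of 11 tested, beside 16.5% and 17.2% of all genes tested. By DESeq2 2 rose and 4 fell. Pgm1, a phosphoglucomutase that links glycogen with glycolysis, fell from 123 and 129 CPM to 57.4 and 59.8 CPM (-1.10 ± 0.07, edgeR adjusted p = 2.96e-10). Pcx, pyruvate carboxylase, fell from 73.6 and 76.5 CPM to 35.8 and 35.3 CPM (-1.08 ± 0.08, adjusted p = 2.74e-09), and Pck2, the mitochondrial PEP carboxykinase, from 39.9 and 32.6 CPM to 21.97 and 18.0 CPM (-0.86 ± 0.12). Fbp2, the muscle fructose bisphosphatase, was at 0.679 and 0.490 CPM and rose to 2.22 and 2.64 CPM (2.06 ± 0.40). Pgm2 and Gys1, glycogen synthase, rose by 0.26 and 0.27, calls that were lost in 3 and 4 of the other settings. The list of pyruvate entry had 0 rises and 4 falls of 11 tested, with Pdk2 at -0.70 ± 0.16, Pdpr at -0.33 ± 0.07 and Pdhb at -0.25 ± 0.07, the last lost without control 1 and with scaling by library size alone. Rises in this list numbered 1 at an unadjusted p under 0.05 (Dlat, 0.17) and 0 by DESeq2.

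Among other glycolysis genes 5 fell and 1 rose of 16 tested, beside 17.2% and 16.5% of all genes tested. By DESeq2 4 fell and 1 rose. Slc2a4, the insulin-responsive transporter GLUT4, fell from 10.0 and 10.7 CPM to 2.74 and 2.85 CPM, a log2 fold change of -1.89 ± 0.19 (edgeR adjusted p = 1.83e-07). Pgam5, a mitochondrial phosphatase that shares only the fold with Pgam1, was at -0.32 ± 0.08, and its call was lost without control 2. Bpgm, the erythroid bisphosphoglycerate mutase, was at 0.40 ± 0.12, a call lost without control 2 or knockout replicate 2.

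For the 2 lists that follow, the shares among all genes tested were 16.5% higher and 17.2% lower. Factors of oxygen sensing outside the members had 4 falls and 1 rise of 8 tested. Hif3a, which encodes a HIF alpha subunit with inhibitory forms, fell from 52.1 and 51.9 CPM to 29.4 and 28.5 CPM (-0.85 ± 0.09, edgeR adjusted p = 2.72e-07). Arnt2, a partner of HIF alpha subunits, fell from 6.75 and 6.08 CPM to 2.95 and 2.64 CPM (-1.19 ± 0.21, adjusted p = 1.94e-04), and Epas1, HIF-2 alpha, from 39.0 and 44.5 CPM to 26.5 and 31.7 CPM (-0.52 ± 0.10, adjusted p = 5.48e-04). Cited2, a negative regulator of HIF-1, rose from 15.6 and 15.1 CPM to 21.8 and 22.8 CPM (0.54 ± 0.11, adjusted p = 0.00104). The 33 tested hypoxia targets outside the members divided evenly, with 9 higher and 9 lower and a median of -0.04. By DESeq2 7 were higher and 7 lower. Ak4, a mitochondrial adenylate kinase, rose from 101 and 106 CPM to 182 and 168 CPM (0.76 ± 0.07, edgeR adjusted p = 4.32e-08), and the haem oxygenase gene Hmox1 from 68.1 and 65.3 CPM to 94.0 and 112 CPM (0.63 ± 0.08). Ndufa4l2, a hypoxia-induced respiratory chain protein, fell from 21.3 and 26.0 CPM to 12.9 and 7.85 CPM (-1.19 ± 0.17; -1.59 without knockout replicate 1 and -0.87 without knockout replicate 2), the histone demethylase gene Kdm4b from 71.7 and 76.9 CPM to 54.4 and 51.5 CPM (-0.49 ± 0.08) and Wsb1 from 143 and 140.3 CPM to 112 and 100.2 CPM (-0.42 ± 0.07).

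**Figure D4:**
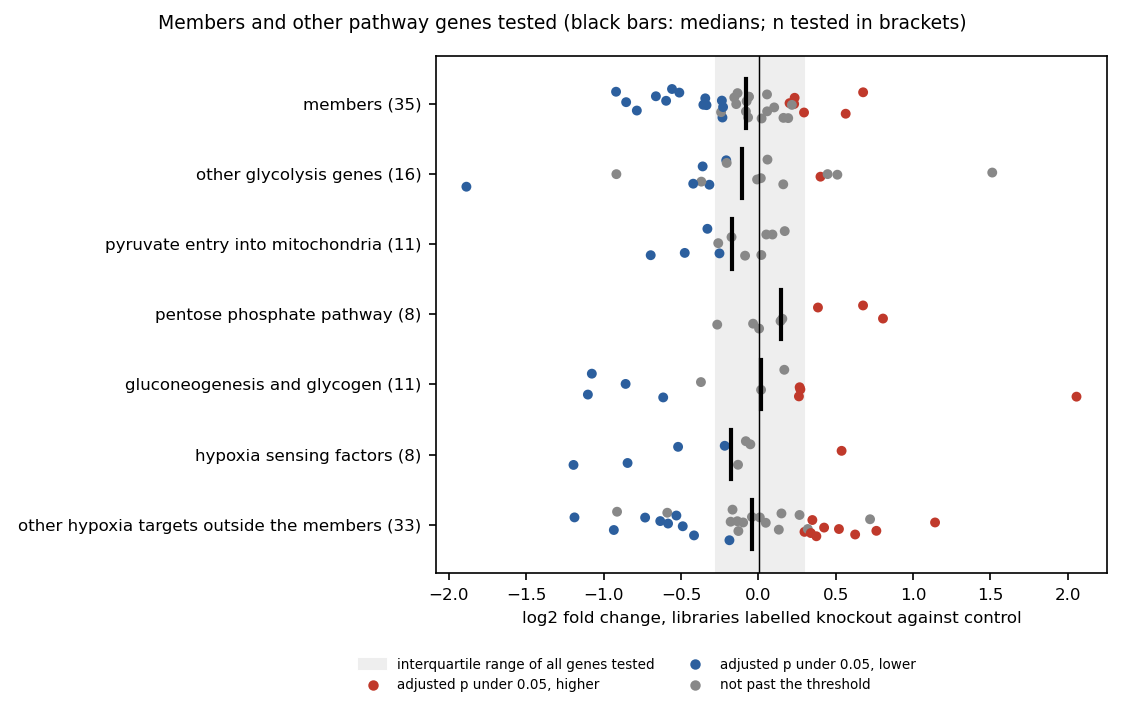
Log2 fold change (x axis, knockout-labelled libraries against controls) of each tested gene among the members and in 6 lists of other pathway genes (y axis, number tested in brackets), with the median of each list as a black bar and the interquartile range of all genes tested in grey. The 8 pentose phosphate genes hold 3 rises and no fall, and the 33 hypoxia targets hold 9 of each. Among all genes tested 16.5% were called higher and 17.2% lower.

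Values of some members carry a limit of the counting. Processed copies of Gapdh, Pgk1, Aldoa, Ldha, Pgam1 and Eno1 can take or give reads, and of the copies that carry a member's name only Eno1b had more than 413 counts in the 4 libraries together. Exons of 14 members overlap a gene on the opposite strand, and the strand setting of the counting is not given in the sources used here. Overlap took 22.7% of the exon length of Ankrd37, 22.3% of that of Bnip3 and 16.1% of that of Pdha1, and the partner genes had 41, 4 and 998 counts in all. A second partner of Ankrd37, Ufsp2, overlaps 3.7% of it and had 2776 counts, against 664 for Ankrd37. Yod1, also on the opposite strand, overlaps 2.12% of Pfkfb2 and had 1351 counts, against 748 for Pfkfb2. Senp1 overlaps 0.539% of Pfkm in this way and had 13358 counts, against 6208 for Pfkm. In 4 members (Pfkfb2, Pkm, Pfkm and Hif1a) exons overlap a gene on the same strand, which no strand setting resolves. For Pfkfb2 this was 17.4% of the exon length with 6 counts in the partner, for Pkm 15.3% with 4209, beside 310164 for Pkm itself, and for Pfkm 10.2% with 56.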

How the data were processed

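Strand-specific, rRNA-depleted, paired-end RNA-seq libraries from 2 control and 2 Ssrp1 KO samples were compared. The authors deposited raw read counts per gene symbol, made with cutadapt, HISAT2 and featureCounts on mm10, per the submitters' processing notes. For versions and the strand setting: not given in the sources used here. All 4 count columns matched a sample, and 0 columns were left unmapped. The column names carry OK where the titles carry KO.

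Counts were tested with edgeR 4.0.16 in R 4.3.3: TMM scaling, filterByExpr (minimum count 10, minimum total 15), the quasi-likelihood F test and Benjamini-Hochberg adjustment over all 17482 genes tested, with a threshold of 0.05. A standard error is the size of the log2 fold change divided by the square root of F. Of 55353 symbols 26633 had no count. With 2 libraries per group the test has 2 residual degrees of freedom before sharing information between genes, and replicates differed by more than counting error (chi-square per degree of freedom 3.37 for the controls and 11.5 for the knockout-labelled libraries). On simulated data edgeR recovered 12 of 50 genes changed 1.25-fold, 36 of 50 changed 1.5-fold and 44 of 50 changed 2-fold. It also called 10 unchanged genes. A missing call therefore does not show that a small change is absent. Positions and lengths come from GENCODE M21 (GRCm38, mm10), and promoters from RefSeq (GRCm38.p6). Members and lists were chosen with earlier results of these data known. Values by library are given for members past the threshold or at 100 CPM and more, among others, and of each other list the 3 genes with the smallest adjusted p in each direction are named, except 1 that is not reported here. Alternatives were DESeq2 1.42.0, other scaling, other filters, leaving out ribosomal-RNA-like genes or a library, a replicate block, named copies summed and merged exons as the length; the last pair was added after the data were seen.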

Additional observations from a re-analysis of the deposited data

How the results depend on the processing

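With 2 libraries per group, small changes rest on single libraries. Leaving 1 out gave 2 to 7 rises and 10 to 15 falls among the members and 11 to 19 rises and 20 to 28 falls among the other pathway genes. The lone sample left in a group is then assumed to vary like the other group. The low ends of the rises, 2 and 11, came without control replicate 1. Leaving out 1 library gave 0.041 to 0.16 for Ssrp1, which passed the threshold only without knockout replicate 1 (0.16, edgeR adjusted p = 0.0108).

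Scaling by library size alone shifted the median of all genes by 0.086 log2 units. It gave 10 rises, a member median of 0.0020, Ssrp1 at 0.19 (edgeR adjusted p = 0.0311), and positive values for Hk2 (0.016), Pfkl (0.0068), Tpi1 (0.0020), Slc16a3 (0.021) and Pfkfb4 (0.022). None of these 5 members was called under either scaling. Leaving out 1 library at a time, Pdk1 ran from -0.014 to 0.053, Pfkfb4 from -0.24 to 0.11 and Slc16a3 from -0.16 to 0.026. The changes of sign were Pdk1 without control replicate 1 (-0.0035) and without knockout replicate 1 (-0.014), Pfkfb4 without control replicate 2 (0.11) and without knockout replicate 1 (0.096), and Slc16a3 without knockout replicate 2 (0.026). The cause was not tested.

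Eno1 was called lower with no filter on low counts (edgeR adjusted p = 0.00274), without the ribosomal-RNA-like genes (0.0442), and without knockout replicate 1 (0.0398) or 2 (7.34e-10). DESeq2 gave 6 rises and 12 falls among the members, and RLE scaling 6 and 13. With at least 5 CPM required in 2 libraries Pfkfb4 was not tested. The replicate numbers gave no sign of pairing (correlation of same-numbered deviations 0.010). With 2 libraries per group this value cannot show that the samples were unpaired. The edgeR fit with the replicate block gave 7 rises and 13 falls, adding Pfkfb3 (adjusted p = 0.0193). Merged exons as the length changed the shares of paralogs, for Pfkp to 51.7% and 52.2% in the controls.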

Other observations

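Of the 12 pathway genes that were too low to be tested, 4 had no count in any library (Slc2a2, Aldoart1, Gapdhs and Pgk2). Fbp1, the liver fructose bisphosphatase, had no count in either control and 9 and 6 counts in the knockout-labelled libraries, and Lox, lysyl oxidase, none against 6 and 7. Both were singled out after their values were seen, and neither was tested.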
